A study of Mus musculus with 6 samples.

Results

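The epithelial membrane protein family consists here of 4 genes, Emp1, Emp2, Emp3 and Pmp22, and all 4 had a row among the 35857 genes of the deposited tables. They were chosen by family membership, with measured values of the same libraries in both groups already known. For that reason the difference between the groups is described for them and not tested. All 4 passed the filter of a mean of at least 1 TPM, which kept 14994 genes. TPM is an abundance scaled to gene length and to the same total in each library, so that levels of different genes can be compared within a library.

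Cerebral cortex was taken on postnatal day 7 from mice of the strain C57BL/6. The control group was 3 brains with the genotype label wild type and the knockout group 3 brains labelled Qk-/-, and each gave 1 library of polyadenylated RNA. The title of the series asks how quaking bears on the change from making neurons to making glia. Which exons were removed, and whether the deletion was restricted to some cells by a Cre driver, is not given in the sources used here. Qk itself, the targeted gene, measured 36.5, 43.2 and 41.3 TPM in the controls against 14.6, 15.2 and 15.4 TPM in the knockouts, so transcript remained in every knockout library and each was below every control. The neuronal marker Tubb3 averaged 2410 ± 327 TPM in control cortex against 2400 ± 97.0 TPM in knockout cortex (SD, n = 3 each). Between 14897 and 15074 genes per library reached 1 TPM, but TPM does not preserve sequencing depth, so read numbers are unknown.

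EMP and PMP22 proteins are small glycoproteins that cross the cell membrane several times and belong to the same superfamily as the claudins of tight junctions. Pmp22 encodes a component of compact myelin in peripheral nerve, where Schwann cells need the right dose of it, and it is also made at lower levels outside the nerve. Emp1 is known from growing and remodelling epithelia and from reactive astrocytes, Emp2 acts on the surface delivery of integrins and other membrane proteins, and Emp3 is known from blood cells and tumours. Quaking, the protein made from Qk, binds RNA at the core sequence ACTAAC or ACTAAT (written in DNA letters) and controls how bound transcripts are spliced, kept and translated.

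The 4 genes lie on different chromosomes of the mouse genome (GRCm38, GENCODE M21). Emp1 (Entrez 13730) spans bases 135362545 to 135383173 of the plus strand of chromosome 6, and Emp2 (Entrez 13731) bases 10281749 to 10313968 of the minus strand of chromosome 16. Emp3 (Entrez 13732) spans bases 45918023 to 45921404 of the minus strand of chromosome 7, and Pmp22 (Entrez 18858) bases 63128982 to 63159547 of the plus strand of chromosome 11. No other annotated gene overlapped any of them on either strand. The proteins, translated from the annotated coding sequences, were 160 (Emp1), 172 (Emp2), 163 (Emp3) and 160 (Pmp22) residues long. Their identity in global alignments ranged from 33.1% (Emp1 with Emp3) to 43.6% (Emp3 with Pmp22), with 40.6% between Emp1 and Emp2.

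Because the targeted gene encodes an RNA-binding protein, the longest annotated 3' UTR of each gene was searched for the quaking core on the transcript strand. The 3 matches are shown because they are all that the search found, 2 in Emp2 and 1 in Pmp22, while Emp1 and Emp3 had 0. Whether a core bears on a gene's difference between the groups was not tested. Each line gives 30 bases of the transcript, 5′ to 3′, with the core in capitals.
Emp2, core at base 644 of the 3' UTR: ctaggtcatcacACTAATttgttgatgttt
Emp2, core at base 2621 of the 3' UTR: caacagagacagACTAACccatgtttgtca
Pmp22, core at base 717 of the 3' UTR: ttccttgttattACTAATcgtttaaaccac

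The cores of Emp2 lie at bases 10283779 to 10283784 and 10281802 to 10281807 of chromosome 16, and that of Pmp22 at bases 63159132 to 63159137 of chromosome 11, all in the last exon. None of the 3 had the shorter core TAAC or TAAT, with which quaking sites are often paired, within 20 bases on either side. The Emp2 3' UTR is 2679 bases long, and 55.4% of tested genes with a 3' UTR within 20% of that length held at least 1 core, while 23.5% held 2 or more. For Pmp22, with 1132 bases, the share holding a core was 29.4%. The Emp1 3' UTR, with 2033 bases, held 0 cores, where 46.0% of 3' UTRs of like length held at least 1, and the Emp3 3' UTR is only 43 bases long. No 3' UTR within 20% of the length of Emp3's held a core (0% of 66). A match describes letters, not binding.

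Emp1 was higher in the knockout cortex. Control replicates 1, 2 and 3 had 4.74, 5.87 and 6.95 TPM, whereas knockout replicates 1, 2 and 3 had 14.9, 15.9 and 19.3 TPM. The lowest knockout value was 2.14 times the highest control value, so the groups did not overlap. Means of 5.85 ± 1.11 TPM for control and 16.7 ± 2.31 TPM for knockout cortex (SD, n = 3 each) gave a ratio of 2.85. On the log2(TPM + 1) scale, which understates changes of low genes, the knockout minus control difference was 1.37 with a standard error of 0.156. That was the 36th highest difference among the 14994 genes tested. In bulk tissue, a change in cell number and a change in RNA per cell cannot be told apart, here or for Emp2.

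Emp2 was lower in the knockout. Its control libraries had 31.6, 28.7 and 36.4 TPM, and its knockout libraries 19.0, 14.4 and 16.9 TPM. Every knockout library was below every control library. The knockout mean of 16.8 ± 2.30 TPM was 0.521 times the control mean of 32.2 ± 3.92 TPM (SD, n = 3 each), and the log2 difference was −0.90 with a standard error of 0.128. Of all tested genes, 5.20% had knockout values wholly above the controls, as Emp1 did, and 8.98% wholly below, as Emp2 did.

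Emp3 and Pmp22 were close to their control levels, with groups that overlapped. For Emp3 the controls gave 10.2, 14.3 and 15.6 TPM and the knockouts 16.6, 15.5 and 12.1 TPM. Its log2 difference of 0.14 was smaller than its standard error of 0.173. For Pmp22 the controls gave 16.5, 14.4 and 17.8 TPM and the knockouts 17.7, 17.9 and 17.4 TPM, with a log2 difference of 0.12 with a standard error of 0.105. The 3 knockout values of Pmp22 all lay within the upper part of the control range or just above it, and their coefficient of variation was 1.42% against 10.6% in the controls. Emp3 varied more, by 21.1% in control and 16.0% in knockout libraries.

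**Figure D1:**
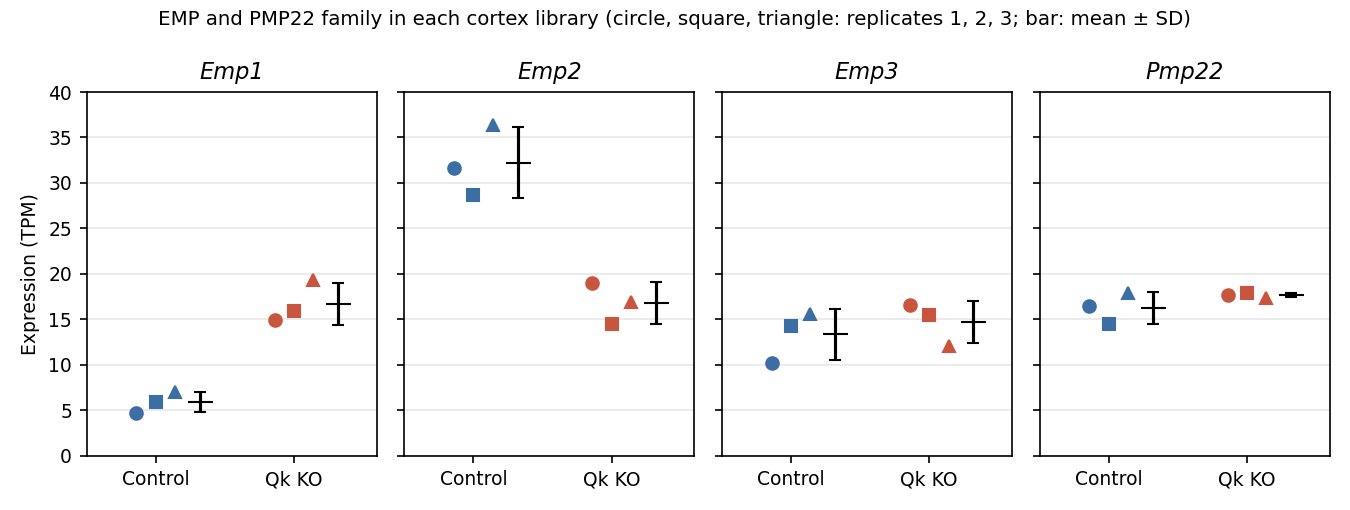
Expression in TPM (vertical axis, from 0) of Emp1, Emp2, Emp3 and Pmp22 in each of the 3 control (blue) and 3 Qk knockout (red) libraries, with replicates 1, 2 and 3 as circle, square and triangle and the mean ± SD in black. The knockout points of Emp1 (14.9 to 19.3) lie above all its control points (4.74 to 6.95), those of Emp2 (14.4 to 19.0) lie below its control points (28.7 to 36.4), and the groups overlap for Emp3 and Pmp22.

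In the limma fit over all genes, 58 of 14994 genes (0.387%) passed an adjusted p of 0.05, of which 15 (0.100%) were higher and 43 (0.287%) lower in the knockout. The count of 58 went to 59, 27 and 31 without control replicates 1, 2 and 3. It went to 40, 28 and 34 without knockout replicates 1, 2 and 3. As this contrast was known when the family was chosen, no call is given for its 4 members, and their differences with 1 library left out are a description. Emp1 ranged from 1.25 to 1.49 and Emp2 from −0.99 to −0.81 over the 6 fits. The difference of Emp3 ranged from −0.03, without control replicate 1, to 0.27, and that of Pmp22 from 0.04 to 0.19.

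**Figure D2:**
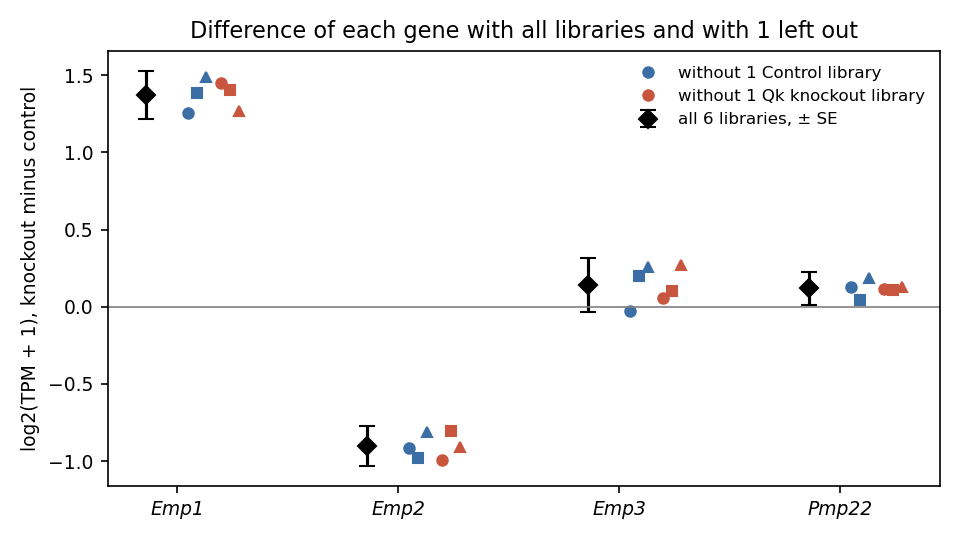
Knockout minus control difference on the log2(TPM + 1) scale (vertical axis) for each gene, with all 6 libraries (black diamond, ± SE) and with 1 control (blue) or 1 knockout (red) library left out, where circle, square and triangle mark replicates 1, 2 and 3 as the one left out. Emp1 stays between 1.25 and 1.49 and Emp2 between −0.99 and −0.81, while Emp3 crosses 0 without control replicate 1.

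Emp1 and Emp2 differed in opposite directions, and the sum over the family overlapped between the groups. The summed TPM of the 4 genes was 63.0, 63.2 and 76.8 in the controls and 68.2, 63.7 and 65.6 in the knockouts, with means of 67.7 ± 7.89 and 65.9 ± 2.28 TPM (SD, n = 3 each). Emp1 made up 8.62% ± 0.957 of that sum in control and 25.4% ± 3.81 in knockout libraries, and Emp2 47.7% ± 2.45 and 25.4% ± 2.63 (SD, n = 3 each). The shares of Emp3 and Pmp22 were 19.7% and 24.1% in control and 22.3% and 26.8% in knockout libraries.

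The ratio of Emp1 to Emp2 within a library does not depend on how the library was scaled. It was 0.150, 0.205 and 0.191 in the controls and 0.783, 1.10 and 1.14 in the knockouts. The mean ratio was 5.55 times as high in the knockouts, and no knockout library came near the control range. In knockout replicate 1 Emp2 still exceeded Emp1, whereas in replicates 2 and 3 Emp1 was the higher of the pair.

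**Figure D3:**
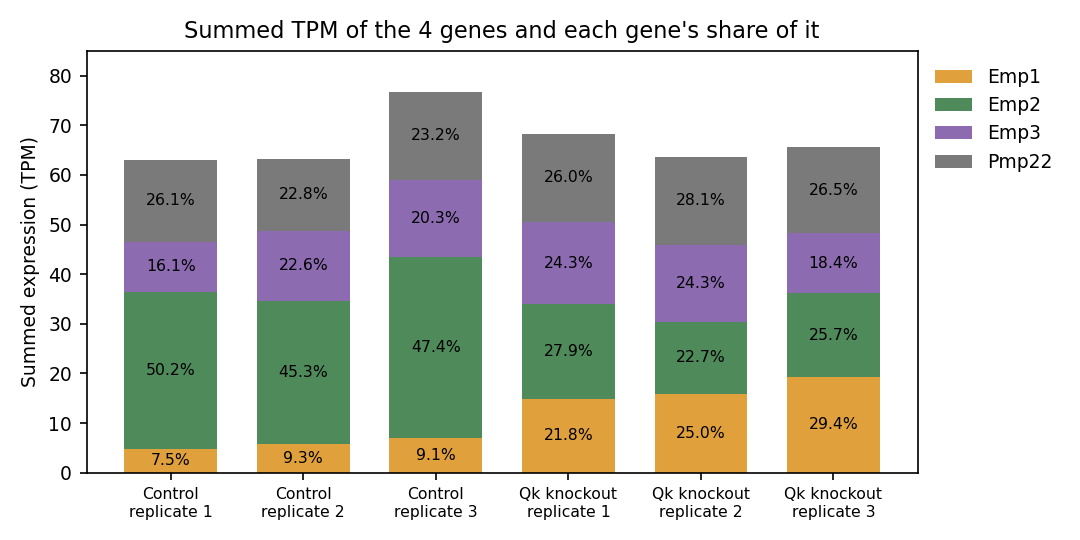
Summed TPM of the 4 genes (vertical axis, from 0) in each library, divided into the parts of Emp1, Emp2, Emp3 and Pmp22, with each part's percentage of the sum printed in it. The bars are of like height (63.0 to 76.8 in control, 63.7 to 68.2 in knockout libraries), and the Emp1 part grows from 7.5 to 9.3% in controls to 21.8 to 29.4% in knockouts as the Emp2 part shrinks.

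The order of levels was the same in all 3 control libraries, with Emp2 highest, then Pmp22, Emp3 and Emp1. Emp2 was above the range of Pmp22 and Emp1 below that of Emp3, while the ranges of Pmp22 and Emp3 overlapped. In the knockouts the 4 genes had means of 14.7 to 17.7 TPM, and every pair of neighbours in the order overlapped. Knockout replicate 1 had the order of the controls, while Pmp22 was highest in replicate 2 and Emp1 in replicate 3. Against all tested genes, the control mean of Emp1 exceeded that of 25.8% of genes and the knockout mean that of 48.4%. For Emp2 the share went from 64.5% to 48.6%.

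No gene of the wider superfamily passed the test, where 0.387% of all tested genes did. At so low a share, 0 calls in lists this short do not set these genes apart from the rest. Of 25 claudins listed, 23 were in the tables and 9 were tested, and 0 were higher or lower at the threshold (median log2 difference 0.02, against −0.03 for all genes tested). Cldn10, which forms ion-selective pores, averaged 43.2 ± 6.83 TPM in control against 24.0 ± 4.90 TPM in knockout cortex, without overlap (limma adjusted p = 0.108). Cldn5, the main claudin of the blood-brain barrier, was at 349 ± 70.3 and 324 ± 35.2 TPM (adjusted p = 0.904; all SD, n = 3). Claudins 7, 8, 13, 17 and 18 were listed at 0 in every library. The 7 calcium channel gamma subunits tested, several of which escort AMPA receptors to the synapse, had differences of −0.21 to 0.07 and 0 calls, and the most abundant were Cacng7 (329 and 323 TPM) and Cacng4 (196 and 206 TPM). Of 8 other relatives, 4 were tested with 0 calls (median −0.08), among them the junction protein Tmem47 at 24.0 and 23.2 TPM and the AMPA receptor auxiliary protein Gsg1l at 18.2 and 17.0 TPM.

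Proteins reported to bind EMP or PMP22 proteins were next, and 0 of the 10 tested passed in either direction (median difference 0.01). Of all tested genes, 0.387% passed. P2rx7, the ATP-gated receptor reported to bind EMP proteins, had control values of 4.11, 3.74 and 4.55 TPM and knockout values of 6.08, 6.05 and 5.58 TPM. Its log2 difference was 0.43 with a standard error of 0.142 and did not pass (limma adjusted p = 0.400). Itga6, the integrin alpha subunit that associates with PMP22, was at 8.81 ± 0.336 and 11.9 ± 0.151 TPM (SD, n = 3 each; adjusted p = 0.271), while its partner Itgb4 had a difference of −0.09. Together with Rer1, a retrieval receptor of the early secretory pathway at 106 and 112 TPM, these were the 3 of 10 partners with knockout values wholly above the controls, where 5.20% of all tested genes had such values, and P2rx7 and Itga6 were picked out after their values were seen. Canx, the chaperone calnexin that holds PMP22 during folding, was at 89.8 and 81.9 TPM.

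**Figure D4:**
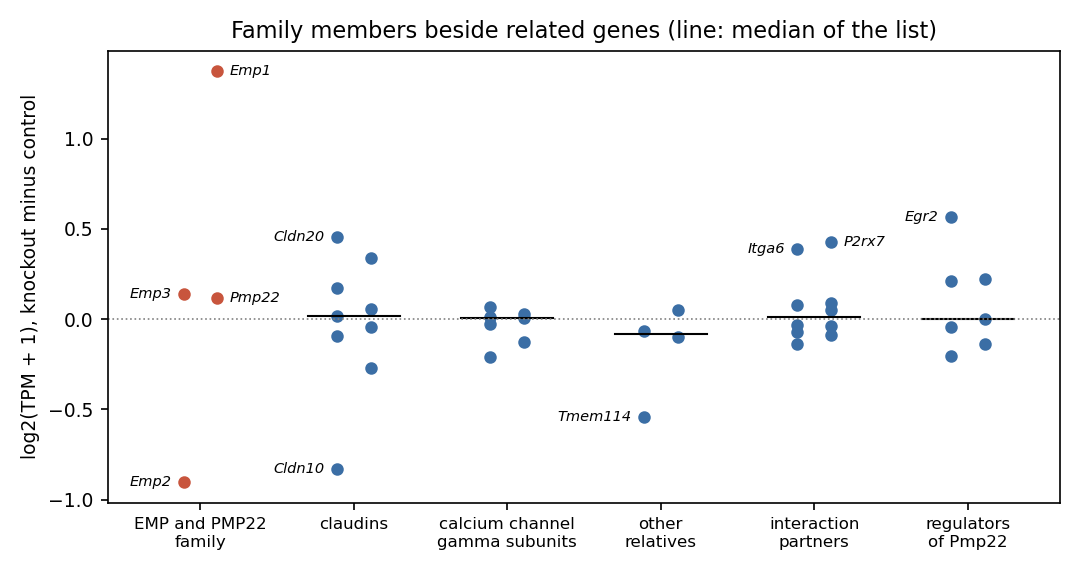
Knockout minus control difference on the log2(TPM + 1) scale (vertical axis) of the 4 family members (red) and of the tested genes of 5 related lists (blue points, 1 per gene, spread sideways for legibility; black line, median of the list). Emp1 lies at 1.37 and Emp2 at −0.90. Among the listed relatives, partners and regulators, Cldn10 (−0.83) and Egr2 (0.57) are the farthest from 0. The list medians lie between −0.08 and 0.02. Emp2 and Cldn10 are closer together than the standard error of either (0.128 and 0.165). The family was chosen with this contrast known.

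None of the 7 known regulators of Pmp22 transcription passed (median 0.00), where 0.387% of all tested genes did. Egr2, the factor that drives Pmp22 in Schwann cells, was at 2.05 ± 0.379 and 3.55 ± 0.861 TPM (SD, n = 3 each; limma adjusted p = 0.468) and was picked out after its values were seen. Nab1 and Nab2, corepressors that bind EGR proteins, were at 26.5 and 26.6 TPM and at 20.3 and 24.0 TPM. Of 12 markers of peripheral nerve and Schwann cells, 6 were tested and 0 passed (median −0.13), with Pou3f1 at 53.8 and 61.3 TPM and Sox10 at 20.9 and 18.0 TPM. Pmp2, which encodes a lipid-binding protein of peripheral myelin, was listed at 0 in all 6 libraries. Pmp22 lay between 14.4 and 17.9 TPM in the same 6 libraries.

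Marker lists of the cells in the cortex were read beside the family values. The part of any of these cells in the differences of Emp1 and Emp2 was not tested. For these lists and those below, the shares over all tested genes were 0.287% called lower and 0.100% called higher. The median log2 difference of all tested genes was −0.03. Of 10 astrocyte markers, 5 fell and 0 rose at the threshold, with 9 of 10 differences below 0. Their summed level was 1058 to 1137 TPM in the controls and 733 to 795 TPM in the knockouts, with a median log2 difference of −0.51 and a range from −1.29 to 0.47. Slc1a3, a glutamate transporter, fell by 1.23 and S100b by 1.29 on the log2 scale. Mlc1 (−1.11), Fgfr3 (−0.67) and the gap junction gene Gja1 (−0.47) were called too. Aldh1l1, a folate enzyme, had the 1 difference above 0 (0.47), and like Gja1 it was picked out after its values were seen. Of 8 tested genes of central myelin, 2 fell, Mbp (−0.85) and Cnp (−0.76), and 0 rose, with summed levels of 249 to 256 and 152 to 176 TPM. Slc1a3, S100b, Mlc1 and Mbp also passed in 6 of 6 fits with a library left out, Cnp in 2, and Fgfr3 and Gja1 in 0.

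Emp1 belongs to a set of genes named for A2 reactive astrocytes. Of the other 11 genes of that set, 7 were tested and 0 passed, with a median of 0.04 and 4 differences above 0. S100a10 was at 444 and 416 TPM, and Tm4sf1 at 10.8 and 13.2 TPM. Cd14, picked out after its values were seen, was at 2.90 ± 0.716 and 6.70 ± 1.29 TPM (SD, n = 3 each; limma adjusted p = 0.120). Of 11 tested genes of the pan-reactive set, Vim rose (0.60, limma adjusted p = 0.0193; past the threshold in 2 of 6 fits with a library left out) and 0 fell, with a median of −0.03, and Gfap had a difference of −0.19. Of 11 genes of the A1 set 0 passed, with a median of −0.17 and Fkbp5 (0.09) and H2-D1 (−0.34) the most abundant. The summed levels, controls first, were 450 to 512 and 435 to 489 TPM for the A2 set without Emp1. For the A1 set they were 179 to 245 and 154 to 182 TPM. For the pan-reactive set they were 358 to 382 and 388 to 459 TPM. Most abundant in that set were Vim, whose mean went from 157 to 239 TPM, and Gfap, from 178 to 156 TPM. Of its 11 differences, 5 were above 0 and 6 below, so the higher sum was not a rise across the set. Vim also sits in the list of radial glia and ciliated cells.

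Among markers of other cells, Mfsd2a fell (−0.61) as the 1 call of 12 endothelial markers, and the list had a median of −0.10 and sums of 557 to 698 and 533 to 595 TPM. Mfsd2a passed in 0 of the 6 fits without a library. The 11 markers of pericytes and smooth muscle, such as Rgs5 (−0.06) and Vtn (−0.32), all had differences below 0 with 0 calls. Their sums were 292 to 314 TPM in the controls and 236 to 270 TPM in the knockouts. Vtn, the most abundant, weighs most in the sums, with means of 172 and 138 TPM, while Rgs5 had 38.3 and 36.7 TPM. Of the 11 markers, 4 had knockout values wholly below the controls and 0 wholly above. The shares of all tested genes were 8.98% and 5.20%. The 12 meningeal fibroblast markers (median −0.24, 0 calls), with Dcn (−0.04) and Igf2 (−0.36), and the 13 of microglia and macrophages (median 0.08, 0 calls), with C1qb (0.25) and C1qc (0.30), lay on either side of 0. Sums of the microglial markers were 321 to 330 TPM in the controls and 343 to 374 TPM in the knockouts, with C1qb and C1qc the most abundant. Of the 13 microglial and macrophage differences, 8 were above 0 and 5 below, with a range from −0.34 to 0.33. Of 7 markers of radial glia and ciliated cells, Foxj1 (0.86) and Vim rose and Hopx (−0.79) fell, with a median of 0.22, and Foxj1 passed in 0 and Hopx in 4 of the 6 fits with a library left out. The 10 neuronal markers (median 0.01, Snap25 0.13), the 8 of choroid plexus (−0.26, with Ttr −0.58 and Folr1 −0.46) and the 5 tested of red blood cells (−0.47, with Hba-a1 −0.47 and Hbb-bs −0.26) had 0 calls.

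The genes whose profile over the 6 libraries was most like that of Emp1 were sought by the root mean square difference of log2(TPM + 1) after the control mean of each gene was taken off, a measure that holds the same contrast. Myoc, which encodes myocilin, came closest of 12703 genes at 0.138, with means of 8.32 ± 0.760 TPM for control and 22.4 ± 0.602 TPM for knockout cortex. Lgals3, the galectin-3 gene, followed at 0.193 with 3.53 ± 1.13 and 9.57 ± 1.48 TPM (all SD, n = 3). Cd79b (0.224), Bdh2 (0.260) and Pdlim3 (0.270) were next. Within 0.2 lay 2 genes for Emp1 and 26 for Emp2. Among all tested genes Emp1 had the 36th largest rise and Emp2 ranked 106 by fall. Fewer genes therefore had a rise as large as that of Emp1 (1.37) than a fall as large as that of Emp2 (−0.90). These sizes differ, so the ranks do not compare rises with falls in general. The closest to Emp2 was Nudt12 at 0.0524, with 4.76 ± 0.683 and 2.15 ± 0.367 TPM, then Fgf1, a fibroblast growth factor, at 0.0984 with 10.5 ± 1.08 and 4.85 ± 0.705 TPM. S1pr1, a receptor for sphingosine 1-phosphate, followed at 0.103 with 83.4 ± 4.26 and 45.3 ± 4.48 TPM (all SD, n = 3), and then came Hopx (0.109) and Chst3 (0.130).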

How the data were processed

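Each of the 6 libraries is 1 deposited table with 1 TPM value per gene, made by the authors. The submitters' processing notes name STAR 2.4.1d, RSEM 1.3.0, mm10 and GRCm38.p4; annotation, trimming and the role of each step: not given in the sources used here. Groups and replicate numbers came from the sample titles. Since TPM are not counts, the 14994 genes averaging 1 TPM or more were analysed as log2(TPM + 1) by linear models in limma 3.58.1 under R 4.3.3, with group as the only term and a trended eBayes prior. Benjamini-Hochberg adjustment of the two-sided p-values covered every gene tested, with a threshold of 0.05. The design text speaks of 3 brains per group, and the p-values reflect the spread among them. The fit was tested on simulated data.

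The members, the 19 gene lists and the rules were chosen with earlier results of these data known. Lists followed function and cell type, and some genes sit in 2 lists. The rule for names took the 4 members, Qk, up to 4 called genes per list or else the 2 most abundant, and the 5 closest profiles among genes of at least 2 TPM without a predicted or clone-based name. Pmp2, Itgb4, Gfap and the claudins at 0 were named beside it, as were genes marked as picked later. Loci and 3' UTRs came from GENCODE M21 (GRCm38), by symbol, which gave a 3' UTR for 89.8% of tested genes. Protein identities used translated GENCODE coding sequences in place of the RefSeq proteins first planned. Alternatives were a pseudocount of 0.5, no filter, median-of-ratios scaling, no trend, the replicate number as a block, each library left out, and all coding transcripts for the 3' UTRs.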

Additional observations from a re-analysis of the deposited data

How the results depend on the processing

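In the 5 settings that kept all libraries, the difference was 1.37 to 1.44 for Emp1 and −0.92 to −0.88 for Emp2. It was 0.14 to 0.17 for Emp3 and 0.12 to 0.15 for Pmp22. Only the pseudocount and the scaling can move these differences, since the filter, the trend and the block leave them unchanged by construction. With 1 library left out the differences ranged, in the same order of genes, from 1.25 to 1.49, −0.99 to −0.81, −0.03 to 0.27 and 0.04 to 0.19. All differences moved by less than 1 SD between replicates. With 3 libraries per group, leaving 1 out cannot move a difference by that much, so the leave-out fits do not test it. The number of called genes, 58 in all and 11 within the lists, was 37 and 6 with no filter, 28 and 4 without the trend, and 27 to 59 and 4 to 7 with 1 library left out, which also leaves fewer samples; the cause of the other losses was not tested. Replicate numbers are shared by the groups and nothing in the labels ties equal numbers together. Deviations of equally numbered libraries correlated by 0.035, 0.0311 and 0.0134 across genes, and each library correlated best with its own number. These correlations are near 0 and no chance level was worked out for them. They therefore do not settle whether the libraries are paired, and the design does not say. With the replicate block, 38 genes were called, 5 of them in the lists. The motif counts were the same over all coding transcripts. The unknown depth limits what can be said of genes under a few TPM.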
